A study of Homo sapiens with 4 samples.

Results

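SNX5, the host gene of the circular RNA circSNX5, was examined together with the genes whose proteins form coats with or beside SNX5 on endosomes: the sorting nexins SNX1, SNX2, SNX6 and SNX32, and the retromer subunits VPS35, VPS26A and VPS29. The 8 genes were matched by symbol to their Ensembl identifiers in a count table of 67008 genes, and each had 1 row. Of the 8, 7 had enough reads to enter the comparison, which covered 14303 genes, and SNX32 had none. The cells were SAS, an established line from a squamous carcinoma of the tongue, and were infected with a virus carrying a short hairpin RNA. In the Ctrl group the hairpin was directed against luciferase (shLuc), a gene that human cells lack, and in the shSTAU1 group it was directed against STAU1. Both groups are labelled wild type, both went through viral infection, and each holds 2 libraries, so that the groups differ by the target of 1 hairpin. RNA was extracted with Trizol and made into libraries with a kit that enriches exons with capture probes (TruSeq RNA Exome). No label says that the 2 libraries of a group came from separate cultures, so the p-values below measure the spread between these libraries, which may be technical. An exact permutation test of 2 libraries against 2 cannot go below a two-sided p of 0.333, so all tests of single genes below are rows of 1 model fitted across all genes.

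Sorting nexins bind phosphoinositide lipids of endosomal membranes through a PX domain. SNX1, SNX2, SNX5, SNX6 and SNX32 also carry a BAR domain, which senses and bends membrane into tubules, and SNX1 or SNX2 pairs with SNX5, SNX6 or SNX32 to make the coat called ESCPE-1. Retromer, built of VPS35, VPS26 and VPS29, is a separate coat that recruits its own adaptors, and both coats return receptors from endosomes to the Golgi apparatus or the cell surface. SNX5 and its close relative SNX6 read a sorting signal in cargo such as the cation-independent mannose-6-phosphate receptor (IGF2R). STAU1 is a protein that binds double-stranded RNA, with roles in the transport, translation and decay of messenger RNA, and the study used its knockdown to ask how STAU1 bears on the making of circular RNAs, circSNX5 among them.

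The 4 libraries held between 32206655 and 36301574 reads assigned to genes. Levels below are counts per 1000000 counts of the library (CPM), with library totals scaled by edgeR's TMM factors, unless another scale is named, and differences are log2 fold changes of shSTAU1 over Ctrl with standard errors (SE). A gene was said to have risen or fallen where edgeR's quasi-likelihood test gave it a Benjamini-Hochberg adjusted p under 0.05. STAU1 served as the check of the labels. It measured 249 and 251 CPM in the Ctrl libraries and 41.6 and 41.5 CPM in the shSTAU1 libraries. STAU1 fell by 2.59 on the log2 scale (SE 0.13, adjusted p = 0.00103 by edgeR's quasi-likelihood test), to 16.6% of its Ctrl level, and both shSTAU1 libraries lay far below both Ctrl libraries.

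The labelled cell type was checked against marker genes, because the labels also name C3H 10T1/2, a mouse fibroblast line, as the cell line while giving the organism as human. All 8 squamous epithelial markers had reads in all 4 libraries, with a summed level of 7477 and 7066 CPM in the Ctrl libraries and 11310 and 8670 CPM in the shSTAU1 libraries. The most abundant of them was KRT5, the type II keratin of basal cells. Of 8 fibroblast markers, 4 had reads in all libraries, and their summed level was 17.9 and 22.8 CPM in Ctrl and 11.1 and 10.2 CPM in shSTAU1, most of it COL1A1. THY1 was at 0 in every library, and COL3A1, DCN and LUM had at most 1 read in any library. By these markers, which were chosen after values were seen, the counts held the genes of a squamous line and little of the fibroblast list. Among the epithelial markers KRT5 and SFN, a 14-3-3 protein of squamous cells, were higher in the shSTAU1 libraries, with adjusted p-values of 0.0408 and 0.0285 by edgeR's quasi-likelihood test, and COL1A1 was lower (adjusted p = 0.036). COL1A2, the partner collagen chain, went the other way in value, at 1.19 and 1.68 CPM in Ctrl and 2.15 and 3.62 CPM in shSTAU1, with a log2 fold change of 1.01 (SE 0.41, adjusted p = 0.185 by edgeR). The part of these shifts in the results below was not tested.

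SNX5 showed no difference beyond the spread between libraries. Its gene lies on the minus strand of chromosome 20 (GRCh38, chr20:17941597-17968980), and its longest principal transcript, ENST00000377768, has 14 exons and 2288 bases. SNX5 collected 13285 and 14030 reads in the Ctrl libraries and 12666 and 14022 reads in the shSTAU1 libraries, or 395 and 428.5 CPM against 364 and 397 CPM. The second shSTAU1 library sat between the Ctrl libraries, so the groups overlapped. The mean level of SNX5 was 412 ± 23.65 CPM over the Ctrl libraries (SD, n = 2) and 380.3 ± 23.3 CPM over the shSTAU1 libraries (SD, n = 2). The log2 fold change of SNX5 was −0.11 (SE 0.12, adjusted p = 0.603 by edgeR's quasi-likelihood test), and its 95% interval ran from −0.40 to 0.17. Without 1 library it ran from −0.20 (without the second shSTAU1 library) to −0.05 (without the first shSTAU1 library), and it was −0.19 without the first Ctrl library and −0.05 without the second. These data therefore leave room for a change of SNX5 in either direction within that interval, and do not show that its level stayed the same. In RNA from whole cultures, fewer cells that carry a transcript and less of it per cell cannot be told apart, here and for every gene below.

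The study places circSNX5 in exons 2 to 3 of SNX5, without naming the transcript used for the numbering in the sources used here. In the principal transcript ENST00000377759, exon 2 spans chr20:17956933-17957037 (105 bases) and exon 3 spans chr20:17955365-17955475 (111 bases), all of them coding. In ENST00000377768, which has 1 more exon at its 5′ end, the same stretches are exons 3 and 4. Reads were counted for the gene as a whole, so reads from circular and linear SNX5 RNA enter the same row, and no value for circSNX5 is given here.

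The SNX5 promoter is shown because its start region is shared with another gene and because it holds the letters of a cyclic AMP response element, which few promoters do. The sequence is from RefSeq (GRCh38.p14, chr20:17968745-17969044, minus strand), covers 250 bases before and 50 after the RefSeq start, and is written 5′ to 3′ with the element in capitals.
SNX5 promoter: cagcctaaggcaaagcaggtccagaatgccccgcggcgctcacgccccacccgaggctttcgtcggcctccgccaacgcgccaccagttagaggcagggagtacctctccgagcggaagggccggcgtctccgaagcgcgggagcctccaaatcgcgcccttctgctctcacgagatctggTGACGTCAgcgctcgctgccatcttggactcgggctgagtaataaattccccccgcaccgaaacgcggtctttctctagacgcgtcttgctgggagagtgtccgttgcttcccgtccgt
The element (TGACGTCA, searched on both strands) began 69 bases before the RefSeq start, and 1.85% of 35116 RefSeq promoters of the same length held it. GENCODE places the start of SNX5 further upstream, at 17968980. By that annotation the element lies inside exon 1 of ENST00000377768 (chr20:17968700-17968980) and upstream of exon 1 of ENST00000377759 (chr20:17968375-17968720). The SNX5 window held no E-box (CACGTG, 7.26% of promoters), no CCAAT box (CCAAT, 34.6%) and no GC box (GGGCGG, 45%). None of these letter strings contains another. In GENCODE, MGME1, which encodes a mitochondrial exonuclease, starts 67 bases from SNX5 on the opposite strand and shares 68 exon bases with it. By the RefSeq starts used for the promoters, MGME1 and SNX5 do not overlap. The RefSeq promoter of MGME1 (chr20:17968768-17969067) covers the same element.

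The values of genes that share the SNX5 locus were set beside those of SNX5, and differences from SNX5 were not tested. SNORD17, a box C/D small nucleolar RNA of the kind that guides RNA modification, lies on the same strand inside an SNX5 intron of 11337 bases (chr20:17957038-17968374), next to the exon named above as exon 2, and shares no base with any SNX5 exon. Its sequence is shown because its reads come from within SNX5. It is read from GENCODE transcripts (release 29, GRCh38, chr20:17962710-17962946, minus strand, 237 bases), with box C (TGATGA) and box D (CTGA) in capitals.
SNORD17: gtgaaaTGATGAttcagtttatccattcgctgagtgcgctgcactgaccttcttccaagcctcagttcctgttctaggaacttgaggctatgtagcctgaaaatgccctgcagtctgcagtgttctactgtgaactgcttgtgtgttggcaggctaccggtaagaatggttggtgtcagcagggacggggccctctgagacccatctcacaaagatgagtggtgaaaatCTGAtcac
SNORD17 collected 13201 and 15684 reads in Ctrl and 11247 and 10438 reads in shSTAU1, a number of the order of that of the whole SNX5 gene. As levels these were 393 and 479 CPM against 323 and 295 CPM, with both shSTAU1 libraries below both Ctrl libraries. The log2 fold change of SNORD17 was −0.50 (SE 0.14, adjusted p = 0.0917 by edgeR's quasi-likelihood test), which did not pass the threshold, while DESeq2 gave an adjusted p of 0.0335. Corrected for transcript length and GC content, its log2 fold change was −0.31 with an adjusted p of 0.214 by edgeR. Without that correction, leaving out 1 library gave log2 fold changes from −0.65 to −0.34. The number of SNORD17 reads per SNX5 read was 0.994 and 1.12 in the Ctrl libraries and 0.888 and 0.744 in the shSTAU1 libraries. These again did not overlap, but the gap between groups was smaller than that between the libraries of either group. Reads from the mature small RNA and from unspliced SNX5 RNA cannot be told apart in these counts.

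MGME1 measured 46.4 and 54.2 CPM in Ctrl and 43.1 and 59.4 CPM in shSTAU1, so that the shSTAU1 libraries lay on both sides of the Ctrl libraries. Its log2 fold change was 0.03 (SE 0.19, adjusted p = 0.947 by edgeR's quasi-likelihood test), and it turned to −0.03 when libraries were scaled by their totals. Without 1 library it ran from −0.24 (without the second shSTAU1 library) to 0.24 (without the first shSTAU1 library). OVOL2, an epithelial transcription factor gene whose span overlaps SNX5 on the same strand and shares 59 exon bases with it, had 91 and 93 reads in Ctrl and 55 and 62 in shSTAU1. Its log2 fold change of −0.73 (SE 0.34, adjusted p = 0.227) did not pass the test. The processed pseudogene SNX5P1 on chromosome 4, held between 18 and 31 reads per library.

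**Figure D1:**
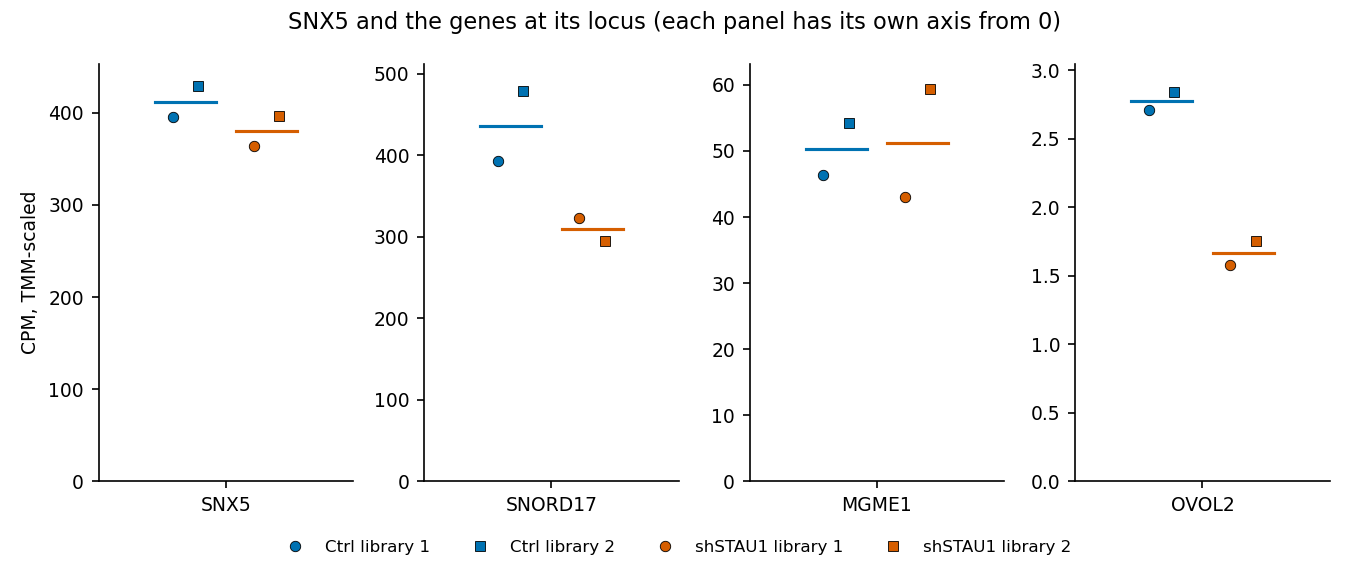
CPM of SNX5, the small nucleolar RNA SNORD17 in its intron, MGME1, which overlaps its start on the other strand, and OVOL2, which overlaps it on the same strand, each panel with its own linear axis from 0; points are libraries and bars the means of the 2 libraries of a group. SNX5 and MGME1 overlap between groups, while SNORD17 (393 and 479 against 323 and 295 CPM) and OVOL2 do not.

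SNX6, the closest relative of SNX5, measured 97.2 and 80.1 CPM in Ctrl and 107 and 97.0 CPM in shSTAU1. The groups overlapped, since the second shSTAU1 library fell just below the first Ctrl library. The log2 fold change of SNX6 was 0.20 (SE 0.15, 95% interval −0.14 to 0.54, adjusted p = 0.4315 by edgeR's quasi-likelihood test). It ran from 0.07 without the second Ctrl library to 0.33 without the first. Its gene is at chr14:34561094-34630183 on the minus strand, and the pseudogene SNX6P1 had at most 1 read per library.

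SNX32, the family member best known from the nervous system, was listed at 0 in all 4 libraries. A count of 0 allows up to 3 reads per library (counting error only), which here is 0.0445 to 0.0458 CPM per kilobase in the Ctrl libraries. A row at 0 in this table need not mean that the RNA was absent. VPS52, a subunit of the GARP and EARP tethers that most cells use, was also at 0 in every library, and VPS53, another subunit of GARP and EARP, had at most 1 read. In all, 4991 of 19921 protein-coding genes (25.1%) had no read in any library. Of the exon bases of SNX32, 357 (9.0%) are shared with CFL1 on the opposite strand, a gene of the actin regulator cofilin that measured 206 and 214 CPM in Ctrl and 257 and 271 CPM in shSTAU1. Whether counting used strand is not given in the sources used here.

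SNX1 and SNX2, which take the other place in the coat, were each somewhat higher in both shSTAU1 libraries, without passing the test. SNX1 (chr15:64094123-64146090, plus strand) measured 67.8 and 74.5 CPM in Ctrl and 85.9 and 80.0 CPM in shSTAU1. Its log2 fold change was 0.22 (SE 0.13, 95% interval −0.09 to 0.53, adjusted p = 0.340 by edgeR's quasi-likelihood test). The groups did not overlap, but the gap between them was smaller than the gap between the Ctrl libraries. SNX2 (chr5:122774996-122830108, plus strand) measured 54.8 and 48.7 CPM in Ctrl and 59.9 and 62.8 CPM in shSTAU1. Its log2 fold change was 0.25 (SE 0.14, 95% interval −0.08 to 0.57, adjusted p = 0.316), and its groups stood apart by less than the Ctrl libraries differed. The value was 0.14 for SNX1 without the first Ctrl library and 0.16 for SNX2 without the second. CIAO2A, an iron-sulfur assembly gene that starts 105 bases from SNX1 on the other strand, had a log2 fold change of 0.53 (SE 0.18, adjusted p = 0.1335 by edgeR). It was 0.69 without the first shSTAU1 library and 0.32 without the second.

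**Figure D2:**
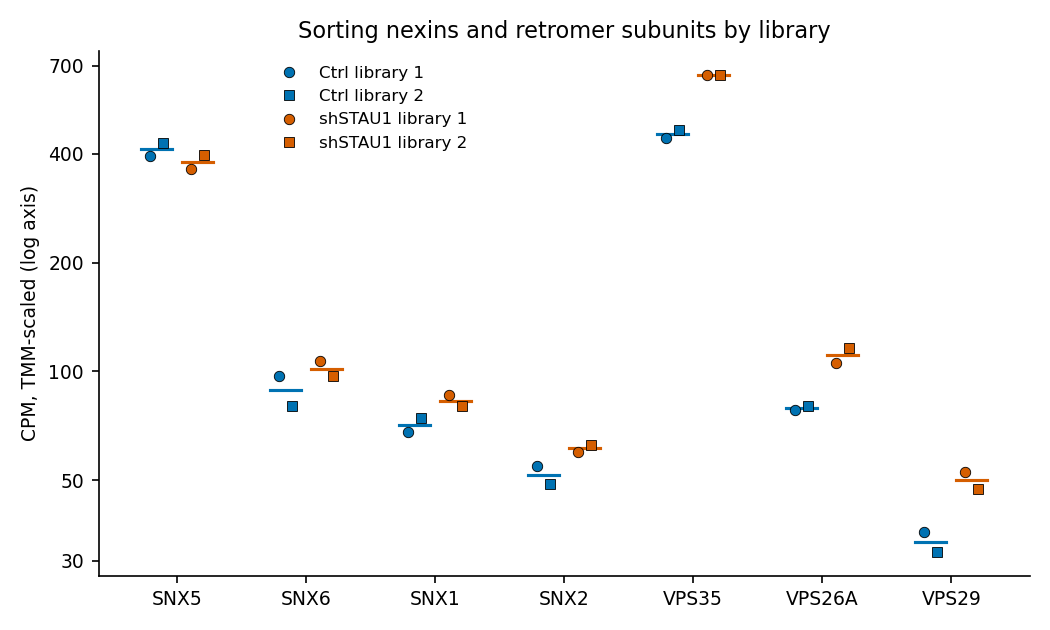
CPM of the 7 coat genes with reads, on a log axis; circles and squares are the libraries of a group (blue Ctrl, orange shSTAU1) and bars their means. SNX5 and SNX6 overlap between groups, and both shSTAU1 libraries of VPS35 (658 and 662 CPM) lie above both Ctrl libraries (441 and 465 CPM).

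The 3 retromer subunits had higher values in both shSTAU1 libraries, by 1.40 to 1.48 times, and stayed short of the threshold. VPS35, the long solenoid that holds the other subunits, measured 441 and 465 CPM in Ctrl and 658 and 662 CPM in shSTAU1. Both shSTAU1 libraries lay well above the Ctrl libraries, which differed from each other by far less than the groups did. The log2 fold change of VPS35 was 0.54 (SE 0.12, 95% interval 0.27 to 0.82), with an adjusted p of 0.0568 in edgeR's quasi-likelihood test (0.00201 before adjustment). VPS26A, an arrestin-like subunit that binds adaptors, measured 78.1 and 80.3 CPM in Ctrl and 105 and 116 CPM in shSTAU1. Its log2 fold change was 0.49 (SE 0.13, 95% interval 0.18 to 0.79, adjusted p = 0.0807 by edgeR), and its groups did not overlap. VPS29, the small subunit at the other end of VPS35, measured 36.01 and 31.7 CPM in Ctrl and 52.8 and 47.4 CPM in shSTAU1. Its log2 fold change was 0.56 (SE 0.15, 95% interval 0.21 to 0.92, adjusted p = 0.0809 by edgeR), again with no overlap.

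The calls for these 3 subunits depended on the tool and its settings. Calls with a replicate block are given in the section on processing. DESeq2 placed all 3 under 0.05, with adjusted p-values of 0.00744 for VPS35, 0.0392 for VPS26A and 0.0318 for VPS29. limma-voom placed none there and gave VPS35 an adjusted p of 0.0519. With no filter on low counts edgeR placed none there either, with adjusted p-values from 0.127 (VPS35) to 0.1735 (VPS29). With edgeR and each library corrected for the length and GC content of transcripts, VPS35 had a log2 fold change of 0.66 and an adjusted p of 0.0463, and neither VPS26A nor VPS29 passed. Without 1 library the log2 fold change ran from 0.49 to 0.58 for VPS35, from 0.39 to 0.56 for VPS26A and from 0.48 to 0.64 for VPS29. The direction was the same under every one of these alternatives.

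The promoters of VPS35 and VPS29 are shown for comparison with SNX5, and that of VPS26A was not analysed here. They are at chr16:46689129-46689428 and chr12:110502062-110502361, both on the minus strand of GRCh38.p14, with CCAAT boxes and GC boxes on either strand in capitals. Both windows are set by RefSeq starts, and that of VPS35 lies inside the gene as GENCODE places it (chr16:46656132-46689518).
VPS35 promoter: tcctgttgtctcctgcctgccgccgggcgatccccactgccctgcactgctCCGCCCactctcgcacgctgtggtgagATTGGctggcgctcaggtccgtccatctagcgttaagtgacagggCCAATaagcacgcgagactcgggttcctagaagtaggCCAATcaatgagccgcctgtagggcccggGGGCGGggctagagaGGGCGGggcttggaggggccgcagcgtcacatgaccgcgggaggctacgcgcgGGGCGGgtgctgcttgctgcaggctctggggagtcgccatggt
VPS29 promoter: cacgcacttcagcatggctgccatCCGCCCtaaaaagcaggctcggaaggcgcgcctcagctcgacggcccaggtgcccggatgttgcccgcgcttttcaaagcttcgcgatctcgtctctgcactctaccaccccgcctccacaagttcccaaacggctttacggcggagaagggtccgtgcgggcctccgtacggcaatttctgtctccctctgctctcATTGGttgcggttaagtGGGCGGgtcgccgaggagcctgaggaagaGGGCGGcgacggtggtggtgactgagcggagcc
The VPS35 window held 3 CCAAT boxes and 4 GC boxes, and the VPS29 window held 1 CCAAT box and 3 GC boxes. Among the sorting nexins, the windows of SNX1 and SNX2 held 4 GC boxes each and that of SNX6 held 5, with no CCAAT box. The SNX1 window (chr15:64095732-64096031) lies inside the gene as GENCODE places it (chr15:64094123-64146090). Among the windows of the 6 coat genes searched, that of SNX5 was the only one with the cyclic AMP response element and the only one without a GC box. A match of letters is a description of the sequence and not a mapped site.

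Neighbours of the retromer genes had values of their own. ORC6, a subunit of the origin recognition complex that starts 125 bases from VPS35 on the other strand, had a log2 fold change of 0.10 (SE 0.14, adjusted p = 0.685 by edgeR's quasi-likelihood test), and its shSTAU1 libraries (121 and 142 CPM) overlapped its Ctrl libraries (116 and 129 CPM). The value of ORC6 was −0.03 without the second shSTAU1 library and 0.21 without the first. RAD9B, which overlaps VPS29 on the other strand, held between 8 and 37 reads per library. The intronic RNA gene ENSG00000261131 inside VPS35 held between 9 and 29 reads, and the pseudogene RPS19P3 inside SNX6 between 42 and 95. The other annotated genes that overlap these members, ENSG00000259135, ENSG00000280376, ENSG00000202335, ENSG00000278993, RPS12P17 and a Y RNA, had at most 3 reads in any library. VPS35P1 and SNX2P2, pseudogenes of VPS35 and SNX2, had no reads, and VPS26AP1 had between 1 and 5, against at least 1595 reads per library for VPS35, SNX2 and VPS26A.

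Counted together, 0 of the 7 tested coat genes passed in edgeR's quasi-likelihood test, where 2.60% of all genes tested did (161 higher and 211 lower). With p unadjusted under 0.05, 3 of 7 were higher, where 12.9% of all genes were, and 0 of 7 were lower, where 11.6% were. Both shSTAU1 libraries lay above both Ctrl libraries for 5 of 7, against 28.5% of all genes, and below them for 0 of 7, against 28.0%. DESeq2 called 3 of 7, where it called 10.1% of all genes, and limma-voom called 0 of 7, where it called 2.54%. The median log2 fold change of the 7 genes was 0.25, beside 0.01 over all 14303 genes, and 6 of the 7 values were above 0, beside 50.4% of all genes. SNX5 was the exception below 0. These 7 genes were chosen as a family and with earlier results of these data known, so the counts describe them and are no test of the family.

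**Figure D3:**
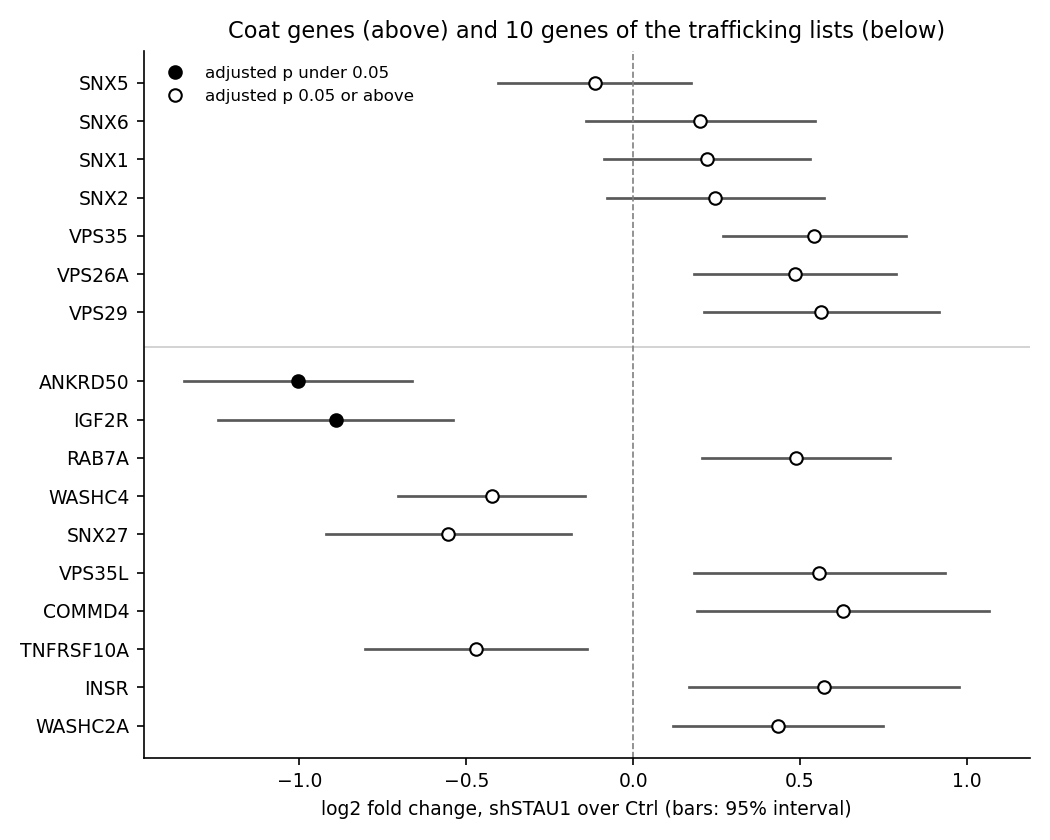
Log2 fold changes of shSTAU1 over Ctrl with 95% intervals, for the 7 coat genes and for the 10 genes of the trafficking lists with the lowest p in the same fit; filled points have an adjusted p under 0.05 in edgeR's quasi-likelihood test. The intervals of VPS35, VPS26A and VPS29 lie above 0 and those of SNX5, SNX6, SNX1 and SNX2 span it, and ANKRD50 and IGF2R are the filled points.

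Levels can be compared between genes only per length, and how well the kit's probes capture each gene was not measured. Per kilobase of the principal transcript, SNX5 was the highest of the coat genes in Ctrl, at 180 ± 10.3 CPM per kb (SD, n = 2), above 98.1% of 11971 protein-coding genes tested. VPS35 came next at 66.7 ± 2.53 CPM per kb, followed by SNX6 at 44.3 ± 6.02 and SNX1 at 36.1 ± 2.39. VPS26A (24.5 ± 0.476), SNX2 (24.3 ± 2.02) and VPS29 (22.2 ± 1.99 CPM per kb) closed the order, and the Ctrl libraries of SNX2 overlapped those of both others. SNX5 was thus 2.70 times the next gene on this scale, and all other neighbours in the order down to VPS26A had Ctrl libraries that did not overlap.

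Because the kit captures coding exons and the VPS35 transcript has long untranslated ends, the order was also taken per kilobase of annotated coding bases of all transcripts. SNX5 remained first with 267 CPM per kb in Ctrl, followed by VPS35 with 176.5. VPS26A moved to the third place with 80.7 CPM per kb, ahead of SNX6 with 58.5 and VPS29 with 52.5, whose Ctrl libraries overlapped. SNX1 (38.0) and SNX2 (33.2 CPM per kb) came last. The first place of SNX5 and the second of VPS35 in Ctrl did not depend on the length used, and the places below them did. In shSTAU1 the first place did depend on it, with mean levels of 166 CPM per kb for SNX5 and 97.2 for VPS35 by transcript, and 246.8 for SNX5 and 257 for VPS35 by coding bases.

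**Figure D4:**
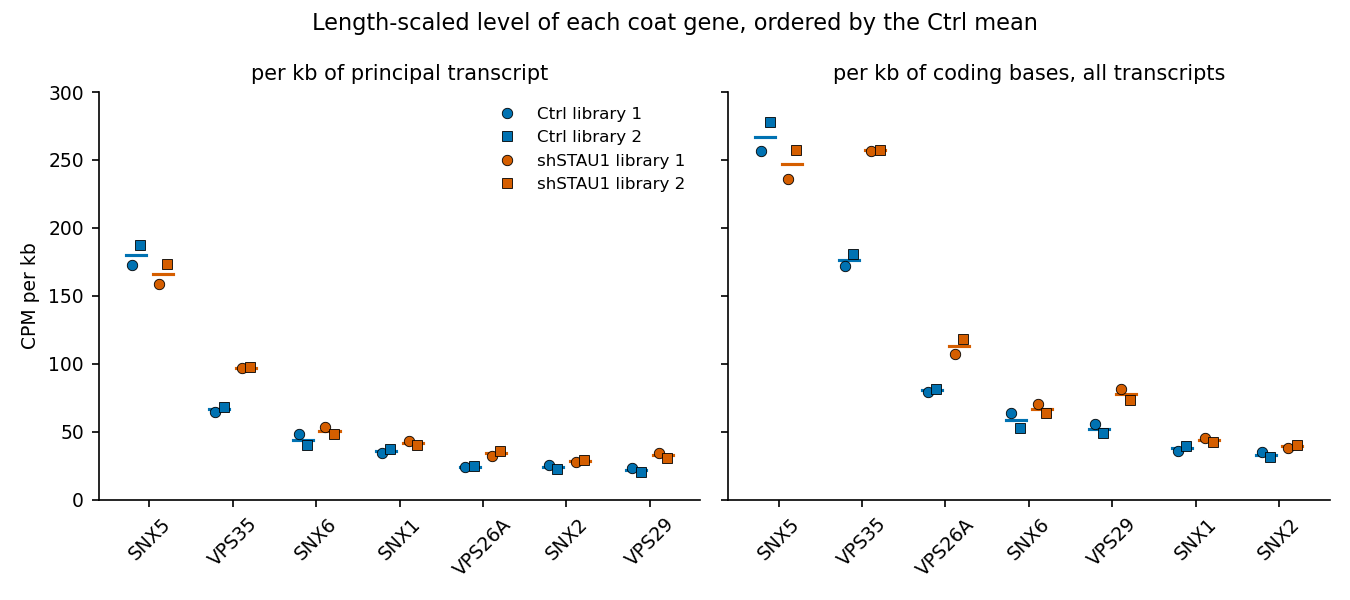
CPM per kilobase of the 7 coat genes with reads, ordered by the Ctrl mean, on linear axes from 0; the left panel divides by the principal transcript and the right by the coding bases of all transcripts, with points for libraries and bars for means. SNX5 is first in Ctrl in both panels (180 and 267 CPM per kb), and in the right panel the shSTAU1 libraries of VPS35 reach the level of SNX5.

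Ratios within a library do not depend on how libraries are scaled to each other. Per kilobase of transcript, SNX5 stood at 3.56 and 4.68 times SNX6 in the Ctrl libraries and 2.98 and 3.58 times in the shSTAU1 libraries, which overlapped. SNX5 made up 61.4% and 65.0% of the summed level of SNX1, SNX2, SNX5 and SNX6 in Ctrl, and 56.0% and 59.4% in shSTAU1. These shares did not overlap, but the groups stood apart by less than the libraries of either group differed. SNX5 and SNX6 together stood at 3.68 and 3.75 times SNX1 and SNX2 together in Ctrl and at 2.96 and 3.17 times in shSTAU1. On this scale the libraries of both groups held a higher summed level for the SNX5 and SNX6 side of the coat than for the SNX1 and SNX2 side. Capture by the kit's probes can differ between genes and was not measured, so this is no measure of RNA in the cells.

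Among these ratios per length, the one that differed most between groups joined the 2 coats. SNX5 stood at 2.66 and 2.73 times VPS35 in the Ctrl libraries and at 1.64 and 1.78 times in the shSTAU1 libraries. Per coding kilobase the same ratios were 1.49 and 1.53 in Ctrl and 0.921 and 0.999 in shSTAU1. By contrast the ratios among retromer subunits overlapped between groups. VPS35 stood at 2.69 and 2.76 times VPS26A in Ctrl and 2.97 and 2.70 times in shSTAU1, and at 2.75 and 3.29 times VPS29 in Ctrl and 2.80 and 3.13 times in shSTAU1. These ratios are descriptions with 2 libraries per group and carry no test.

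The genes that work with these coats were described by lists of adaptors, complexes and cargo. Of 80 genes in 7 lists, 75 were tested, 0 rose and 2 fell in edgeR's quasi-likelihood test, where 2.60% of all genes tested passed, and their median log2 fold change was −0.0005, beside 0.01 over all genes tested. With p unadjusted under 0.05, 12 were higher, where 12.9% of all genes were, and 9 lower, where 11.6% were. DESeq2 called 3 higher and 4 lower, where it called 10.1% of all genes, and limma-voom called 0 higher and 2 lower, where it called 2.54%. These counts are near those shares, so the lists as a whole did not stand out from all genes.

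Of 12 retromer paralogs, adaptors and regulators, 1 fell and 0 rose by edgeR, which called 2.60% of all genes, and the median log2 fold change was 0.07. At p unadjusted under 0.05, 3 of the 12 were higher and 3 lower, beside 12.9% and 11.6% of all genes. DESeq2 called 1 higher (RAB7A) and 2 lower (ANKRD50 and SNX27), where it called 10.1% of all genes. ANKRD50, which links retromer to the WASH complex and to SNX27 cargo, measured 63.9 and 62.7 CPM in Ctrl and 29.3 and 33.8 CPM in shSTAU1. It fell by 1.00 on the log2 scale (SE 0.15, adjusted p = 0.0328 by edgeR's quasi-likelihood test), with the groups far apart, and lost the call without the filter on low counts (adjusted p = 0.0988). SNX27, the adaptor that hands cargo with PDZ-binding tails to VPS26, had a log2 fold change of −0.55 (SE 0.16, adjusted p = 0.0899). RAB7A, the late endosomal GTPase that recruits retromer, had one of 0.49 (SE 0.12, adjusted p = 0.0712). Without 1 library the value ran from −0.62 to −0.50 for SNX27 and from 0.42 to 0.53 for RAB7A. With the length and GC correction it was −0.44 for SNX27 and 0.49 for RAB7A (adjusted p = 0.137 and 0.0712 by edgeR). Both shSTAU1 libraries of RAB7A (286 and 304 CPM) lay above its Ctrl libraries (215 and 206 CPM), and those of SNX27 (23.8 and 21.9) lay below (35.2 and 31.9). VPS26B, the paralog of VPS26A, stood at 12.5 and 14.5 CPM in Ctrl and 15.3 and 15.2 CPM in shSTAU1, with a log2 fold change of 0.18 (SE 0.19, adjusted p = 0.597).

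The WASH complex, which builds branched actin on retromer domains, had 0 of 6 genes called by edgeR, DESeq2 or limma-voom (2.60%, 10.1% and 2.54% of all genes), with 2 higher and 1 lower at p unadjusted under 0.05 (12.9% and 11.6% of all genes) and a median log2 fold change of 0.05. Its scaffold gene WASHC4 measured 364 and 392 CPM in Ctrl and 282 and 281 CPM in shSTAU1, a log2 fold change of −0.42 (SE 0.12, adjusted p = 0.0893 by edgeR's quasi-likelihood test). WASHC2A, the subunit that docks on VPS35, had a log2 fold change of 0.43 (SE 0.13, adjusted p = 0.108). Without 1 library the value ran from −0.49 to −0.37 for WASHC4 and from 0.30 to 0.54 for WASHC2A. With the length and GC correction it was −0.30 for WASHC4 and 0.50 for WASHC2A (adjusted p = 0.186 and 0.0775 by edgeR). WASHC2A and WASHC2C are near-identical copies, so the split of reads between them is uncertain.

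Commander is a complex that recycles other cargo and contains relatives of VPS35 and VPS26. Its list here included SNX17 and left out VPS29, which was counted with the coat genes. Of the 16 listed genes, 0 were called by edgeR or limma-voom and 1 by DESeq2 (COMMD4), which called 2.60%, 2.54% and 10.1% of all genes. Of the 16, 3 were higher and 1 lower at p unadjusted under 0.05, beside 12.9% and 11.6% of all genes. The median log2 fold change was 0.23, and 12 values (75.0%) were above 0, beside 50.4% of all genes. VPS35L, the relative of VPS35, measured 20.3 and 22.7 CPM in Ctrl and 33.1 and 30.2 CPM in shSTAU1, a log2 fold change of 0.56 (SE 0.16, adjusted p = 0.0926 by edgeR's quasi-likelihood test). COMMD4 had one of 0.63 (SE 0.19, adjusted p = 0.0991). Without 1 library the log2 fold change ran from 0.44 to 0.83 for COMMD4 and from 0.46 to 0.64 for VPS35L. VPS26C, the relative of VPS26A, had one of 0.22 (SE 0.19, adjusted p = 0.499).

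Among the sorting nexins not in the lists above, 0 genes were called by edgeR, DESeq2 or limma-voom, which called 2.60%, 10.1% and 2.54% of all genes. Of 7 others with a BAR domain, 1 was higher at p unadjusted under 0.05, where 12.9% of all genes were higher and 11.6% lower, and the median log2 fold change was 0.08. Of 14 listed here without one, 11 were tested, and 0 were past an unadjusted p of 0.05 in either direction. Of the 11 values, 1 was above 0, beside 50.4% of all genes, with a median of −0.24. The 3 that were not tested, SNX15, SNX20 and SNX22, had at most 3 reads in any library. SNX3, SNX12, SNX17 and SNX27 also lack a BAR domain but were counted in the lists above. Their log2 fold changes were 0.37, 0.09, 0.25 and −0.55, and SNX3 and SNX27 were past an unadjusted p of 0.05 by edgeR. A list of tethers that receive the vesicles, made of the GARP and EARP subunits with the golgin GCC2 and the golgin-binding TBC1D23, had 0 of 5 tested genes called by any of the 3 tools and 0 at p unadjusted under 0.05, with a median log2 fold change of 0.05. The tested genes were VPS50, VPS51, VPS54, GCC2 and TBC1D23.

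Of 18 cargo genes, 1 fell and 0 rose by edgeR, which called 2.60% of all genes, with a median log2 fold change of −0.19. IGF2R, the cargo whose tail SNX5 binds, measured 649 and 629 CPM in Ctrl and 388 and 301 CPM in shSTAU1. It fell by 0.89 on the log2 scale (SE 0.15, adjusted p = 0.0358 by edgeR's quasi-likelihood test), and both shSTAU1 libraries lay far below both Ctrl libraries. The call of IGF2R was lost without the filter on low counts (adjusted p = 0.0989), without the first Ctrl library (0.0582) and without the second (0.0525), at log2 fold changes of −0.90, −0.89 and −0.91. M6PR, the smaller mannose-6-phosphate receptor, had a log2 fold change of 0.41 (SE 0.15, adjusted p = 0.148). INSR, the insulin receptor, had one of 0.57 (SE 0.17, adjusted p = 0.1025), and TNFRSF10A, a death receptor for TRAIL, one of −0.47 (SE 0.14, adjusted p = 0.102). The value of INSR was 0.33 without the first shSTAU1 library and 0.76 without the second. Without 1 library that of TNFRSF10A ran from −0.57 to −0.40. At p unadjusted under 0.05, 3 of the 18 cargo genes were higher and 4 lower, beside 12.9% and 11.6% of all genes, and DESeq2 called 1 higher (INSR) and 2 lower (IGF2R and NRP1), where it called 10.1% of all genes.

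**Figure D5:**
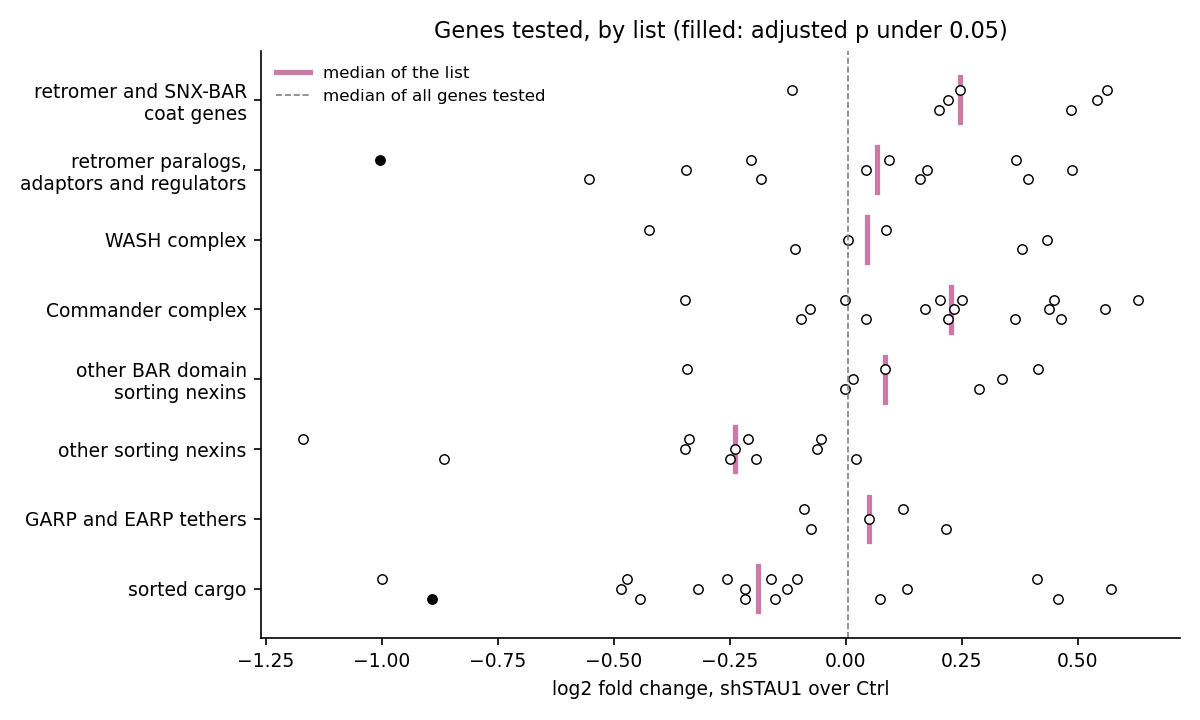
Log2 fold changes of shSTAU1 over Ctrl for the tested coat genes and for each list of related genes; every point is a gene, filled where its adjusted p was under 0.05 in edgeR's quasi-likelihood test, and vertical bars are list medians. The medians run from −0.24 (other sorting nexins) to 0.25 (coat genes) around the dashed median of all genes tested, 0.01.

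The pattern of each coat gene over the 4 libraries was compared with the 7775 genes of at least 10 CPM on average, by the Euclidean distance of centred log2 CPM. VPS35 and VPS26A were the closest pair among the coat genes, at a distance of 0.116, and SNX5 and VPS29 the farthest apart, at 0.739. The genes most like SNX5 were PDCD7 (0.0107), VPS72 (0.0168) and SORBS3 (0.0247), and 165 genes (2.12%) lay within 0.1 of it. For VPS35 they were NOB1 (0.0171), NUFIP1 (0.0295) and H2AJ (0.0299), with 64 genes (0.823%) within 0.1. NOB1 had 62.6 and 67.1 CPM in Ctrl and 94.2 and 95.05 CPM in shSTAU1. The nearest gene was UBA2 for VPS26A (0.0198), AP1M2 for VPS29 (0.0212), JKAMP for SNX6 (0.0215) and RNF8 for SNX2 (0.0190). With 4 libraries many genes share any given pattern, so the nearest genes are a description of these libraries.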

How the data were processed

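RNA of SAS cells was sequenced in 2 Ctrl and 2 shSTAU1 libraries made with the TruSeq RNA Exome kit. The authors deposited 1 table of whole-number read counts per Ensembl gene, not normalized. The submitters' processing notes name Partek and hg38, while the aligner, the counting rule, its strand setting and the annotation release are not given in the sources used here. Library totals ran from 32206655 to 36301574 counts, and counting intervals and floors cover counting error only. Within each group the libraries' counts differed beyond sampling noise (chi-square over degrees of freedom of 25.2 in Ctrl and 60.0 in shSTAU1), so none was counted as a duplicate.

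Counts were filtered with filterByExpr, which left 14303 genes with 99.9% of counts, scaled by TMM and tested with edgeR 4.0.16 (R 4.3.3) by its quasi-likelihood test, with Benjamini-Hochberg adjustment over all 14303 genes and a threshold of 0.05. All 4 libraries entered the fit with the group as its only term. The model was also run on counts simulated with the means and dispersions of that fit. The biological coefficient of variation was 19.15%. Alternatives were DESeq2 1.42.0, limma-voom (limma 3.58.1), no filter on low counts, scaling by library size, a threshold of 0.10, a replicate block and leaving out each library. After the data were seen, a correction of each library for transcript length and GC content (mgcv 1.9.3, 99.0% of genes) and coding length for levels were added. Without 1 library, its group has a lone sample, which is assumed to vary like the other group.

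Gene positions, lengths and exons were taken from GENCODE release 29 (GRCh38), and promoters from RefSeq (GRCh38.p14, 6 of the 8 genes matched). The start of a gene can differ between these annotations. The principal transcript is the longest one that GENCODE marks as principal. The genes named were STAU1, the 8 genes, every list gene with an adjusted p under 0.05 or otherwise the 10 list genes with the lowest p, genes that overlap one of the 8 or start within 1 kb of it on the other strand, pseudogenes named after it, and the 3 genes nearest to it in pattern, of which the text gives a selection. The gene nearest to SNX1 is not reported here. Other genes named as examples of a list (VPS26B, VPS26C, M6PR, WASHC2C, the tethers and the untested sorting nexins) and the markers fall outside that rule and were chosen after values were seen. The genes and lists were chosen with earlier results of these data known.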

Additional observations from a re-analysis of the deposited data

How the results depend on the processing

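The count of genes called by edgeR was 372 (161 higher, 211 lower). It was 1449 with DESeq2 (773 higher, 676 lower), 404 with library size in place of TMM (132 higher, 272 lower), 363 with limma-voom, 342 with the length and GC correction (183 higher, 159 lower), 1585 at an adjusted p under 0.10 and 11 with no filter on low counts (2 higher, 9 lower). Without 1 library it ran from 214 to 2625. Of the 7 tested coat genes, 0 were called in the main analysis, 3 with DESeq2, 3 at an adjusted p under 0.10, 1 with the length and GC correction and 0 to 3 without 1 library. In the trafficking lists 2 genes were called in the main analysis, 7 with DESeq2, 7 at an adjusted p under 0.10, 0 with no filter on low counts and 1 to 12 without 1 library. The cause of these shifts was not tested, except that a higher threshold calls more genes by construction. A replicate block, fitted because both groups carry libraries numbered 1 and 2, gave 4087 calls (2208 higher, 1879 lower), 3 coat genes and 23 list genes, and with the length and GC correction 3804 calls (2363 higher, 1441 lower), 3 coat genes and 20 list genes. The deviations of same-numbered libraries correlated at 0.27. The column names of the counts also join 1 Ctrl with 1 shSTAU1 library by a leading number. No label says what that number marks, so whether the libraries are paired is not known.

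SNX5 kept its direction and its side of the threshold throughout, with log2 fold changes of −0.17 to −0.11 over the alternatives and −0.20 to −0.05 without 1 library. Over 27 named values and their alternatives, 235 of 297 kept direction and side of the threshold, 50 passed it only under the alternative (26 of them with the replicate block), 4 lost it and 8 changed sign. The sign changes were all in genes far from the threshold. MGME1 went from 0.03 to −0.028 with library size in place of TMM, and without 1 library it ran from −0.24 (without shSTAU1 replicate 2) to 0.24. Without 1 library, ENSG00000261131 ran from −0.031 (without shSTAU1 replicate 1) to 1.12, ORC6 from −0.033 (without shSTAU1 replicate 2) to 0.21, RAD9B from −0.095 (without shSTAU1 replicate 1) to 1.57 and SNX5P1 from −0.42 to 0.41 (without Ctrl replicate 2). With 2 libraries per group, the 95% intervals of SNX1, SNX2, SNX5 and SNX6 all included 0.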

Other observations

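Among the listed cargo, a pair of receptors differed between libraries of the same group. NRP1, a semaphorin and VEGF co-receptor, measured 27.9 and 28.6 CPM in Ctrl and 8.13 and 20.1 CPM in shSTAU1, with a log2 fold change of −0.999 (SE 0.37, adjusted p = 0.150 by edgeR's quasi-likelihood test), while DESeq2 called it lower. LRP1, a large endocytic receptor, measured 43.5 and 28.9 CPM in Ctrl and 48.8 and 16.3 CPM in shSTAU1, so that its groups overlapped and its log2 fold change was −0.15 (SE 0.45, adjusted p = 0.8635). Both genes were picked out after their values were seen.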
